A study of Mus musculus with 6 samples.

Results

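Peaks of open chromatin were described at 10 genes of the intercalated disc, the end-to-end junction of cardiomyocytes: Dsp, Pkp2, Jup, Dsg2, Dsc2, Cdh2, Ctnna3, Gja1, Tjp1 and Xirp1. The genes were given by name, and every peak that overlapped the gene body or 10 kb to either side of it was taken. These 10 genes are among 21938 protein-coding genes of the annotation, and their windows held 774 of the 587191 peaks of the 6 libraries. Overlapping peaks were merged into 246 regions, of 169881 in all.

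Omni-ATAC-Seq, in which a transposase inserts adapters into accessible DNA, was performed on 50000 nuclei per library from whole hearts at postnatal day 1, and each of 3 conditions had 2 biological replicates, 6 libraries in all. Input nuclei came from wildtype hearts and sedimented through a 2.2 M sucrose cushion, with no immunoprecipitation. The Myc libraries hold nuclei of Nkx2-5 Cre/+; R26RSun1-Myc-Egfp/+ hearts, in which Cre from the Nkx2-5 locus switches on a Myc-tagged nuclear envelope protein, and the nuclei were pulled down with a Myc antibody by magnet-assisted nuclear immunoprecipitation (MAN-IP) after the same cushion. The PCM1 libraries hold nuclei of wildtype hearts pulled down after the cushion with an antibody to PCM1, a centrosomal protein that lies at the nuclear envelope of cardiomyocytes. The Nkx2-5 lineage also includes smooth muscle and endothelial cells of the heart. The paper chose the 2.2 M cushion to keep peaks of cells other than cardiomyocytes out of the Nkx2-5 maps. It reports that antibodies to Myc and to the cardiomyocyte marker phospholamban stained all nuclei from this cushion. PCM1 stained only a fraction of them. The figure legend, unlike the main text, describes the stained nuclei as the eluate of Myc MAN-IP. For the partial PCM1 staining the paper proposes low avidity of the antibody, seen at short incubation times. Myc libraries differ from the others in genotype as well as in antibody, so the effects of these cannot be told apart.

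The intercalated disc joins neighboring cardiomyocytes mechanically and electrically. Desmosomes anchor intermediate filaments through desmoplakin (Dsp), plakophilin 2 (Pkp2), plakoglobin (Jup) and the desmosomal cadherins desmoglein 2 (Dsg2) and desmocollin 2 (Dsc2). Adherens junctions tie N-cadherin (Cdh2) to actin through catenins, among them alpha-T-catenin (Ctnna3). Gap junctions of connexin 43 (Gja1) carry current between cells, ZO-1 (Tjp1) is a scaffold at their edge, and Xirp1 encodes an actin-binding protein of the disc that is found in striated muscle. Mutations in the desmosomal genes are known in arrhythmogenic cardiomyopathy.

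The libraries held between 75336 and 131500 peaks. Their depth was read from the modal background of the peak caller, which ran from 0.903 to 3.96 tags and differed 4.38 times between the shallowest library, PCM1 replicate 2, and the deepest, Input replicate 1. A region without a peak in a shallow library may therefore lie under its limit of detection. The rank percentile of a peak is its place by -log10 q-value among the strongest 75336 peaks of its library, from 0 (not among them, or no peak) to 100. The pileup of a summit is the number of tags stacked at its highest point, and it was compared between groups after normalization across libraries. Each library entered a merged region with its highest summit, so the positions compared may differ between libraries. Positions are given as the distance of the strongest summit from the 5′ end of the gene, negative upstream, on the mm10 assembly.

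All 10 genes had a peak within 1 kb of an annotated transcription start site (TSS) in each of the 6 libraries, while between 63.3 and 69.3% of all protein-coding genes had one in a given library. Of the 246 regions, 69 (28.05%) had a peak in all 6 libraries, 78 in 2 to 5 and 99 (40.2%) in a single library. Over the 119327 regions in the windows of all protein-coding genes the corresponding shares were 31.4% in all 6 libraries and 29.4% in 1. Input replicate 1, the deepest library, held 37 of the 99 regions seen once. Start-site regions were shared by all libraries more often than intronic ones, 73.3% of 15 against 22.6% of 199. That split was not made over all genes, so it cannot be read as particular to the disc genes. The 69 shared regions comprised 11 at a TSS of a member, 2 at the TSS of another gene, 7 upstream, 3 downstream, 45 in introns and 1 in a coding exon.

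Ctnna3, whose body spans 1574 kb, held 103 regions, and Tjp1 and Cdh2 held 45 and 41. The smaller genes held 14 (Jup), 13 (Pkp2), 10 (Dsp), 7 (Gja1), 6 (Dsg2), 5 (Xirp1) and 2 (Dsc2). Per 100 kb of window this came to 28.7 regions at Jup, the highest of the 10, 6.46 at Ctnna3 and 4.09 at Dsc2, the lowest, with a median of 15.9 against 10.2 over all genes. The 3 long genes thus held 189 of the 246 regions, and 36 of the 69 shared ones. Only 3 regions had a peak in both libraries of 1 group and in no other library, and all were weak. They lay in Ctnna3 introns at 141.8 kb (Input) and 158.2 kb (PCM1), and in a Xirp1 intron at 3.2 kb (Myc). Each made up 0.41% of the member regions, where regions of that kind made up 1.08% (Input), 1.58% (Myc) and 0.28% (PCM1) of those in the windows of all genes.

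**Figure D1:**
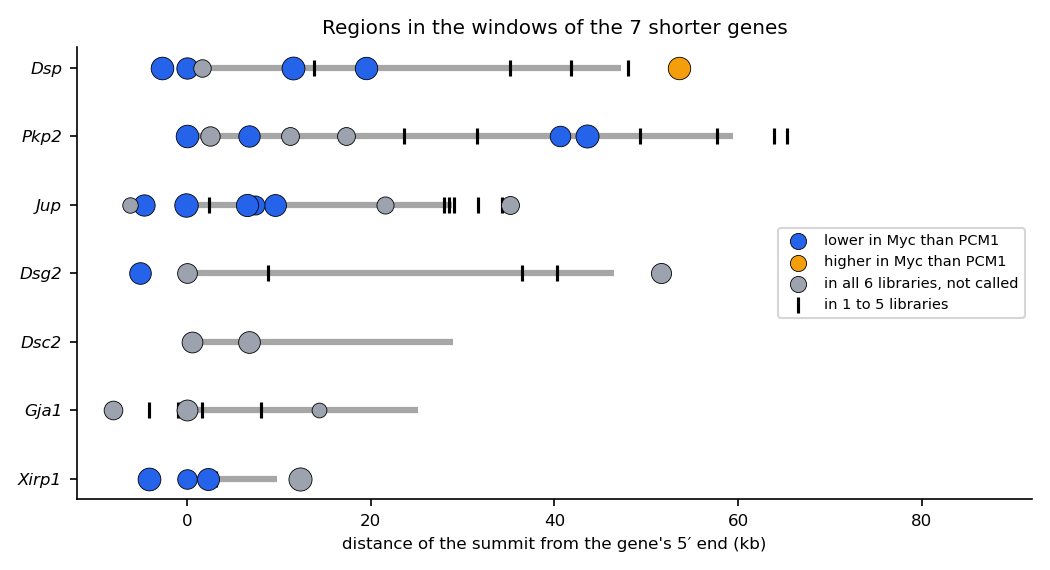
Regions in the windows of Dsp, Pkp2, Jup, Dsg2, Dsc2, Gja1 and Xirp1, by distance of the summit from the 5′ end of the gene in kb (x axis). Gray bars are gene bodies, circles are regions with a peak in all 6 libraries (larger circles rank higher), blue and orange mark those lower or higher in Myc than in PCM1 at an adjusted p under 0.05, and ticks are regions of 1 to 5 libraries. Blue circles sit toward the 5′ end of Dsp and Jup, along Pkp2 and around the start of Xirp1, and Dsc2 and Gja1 have none.

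By the strongest peak in the window, the members ranged from a mean percentile of 99.1 (Jup) to 78.2 (Gja1), and the median of the 10 was 93.1 against 89.0 over the 18086 genes with any peak in their window. The order was Jup (99.1 ± 0.70, SD over the 6 libraries), Xirp1 (96.1 ± 0.78), Dsp (95.4 ± 0.87), Pkp2 (95.4 ± 2.17), Ctnna3 (93.3 ± 2.68), Cdh2 (92.9 ± 4.70), Tjp1 (88.4 ± 2.13), Dsc2 (83.996 ± 2.38), Dsg2 (83.1 ± 7.26) and Gja1 (78.2 ± 7.30). Jup ranked above Xirp1 in 6 of 6 libraries, by 3.03 ± 0.61 (SD). No other neighboring pair in this order kept its order in all 6 libraries. The Dsp and Pkp2 means differed by 0.067 ± 1.46 and the Dsc2 and Dsg2 means by 0.92 ± 6.97, both less than the spread. In both Myc libraries the strongest peak of the Dsp window was the promoter of its neighbor Snrnp48 (94.5 and 94.3). Without it the Dsp values there were 87.6 and 91.5, below those of Pkp2 (93.1 and 92.3). The Dsp mean would then be lower and its SD larger than given. Ranked by fold enrichment instead, with that promoter counted too, Dsp led with a mean of 97.3 and Jup stood at 86.5.

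**Figure D2:**
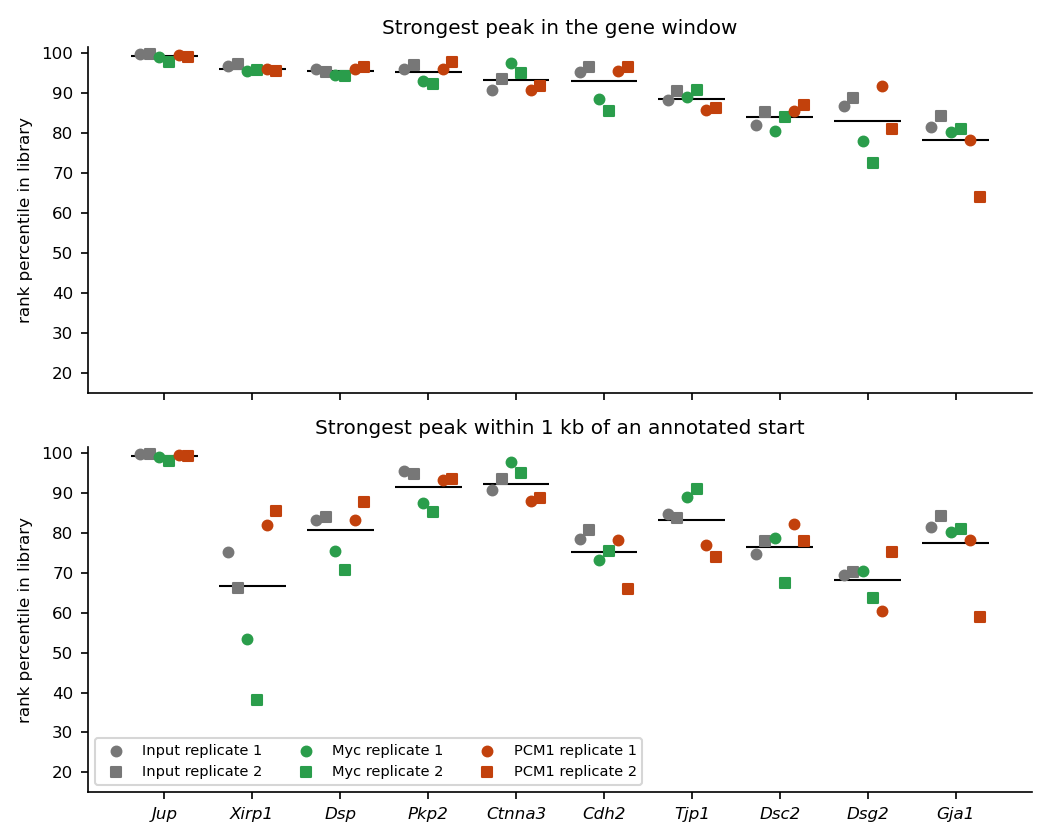
Rank percentile (y axis, 0 to 100, axis starting at 15) of the strongest peak in the window (top) and of the strongest peak within 1 kb of a TSS (bottom), by gene; points are the 6 libraries, colored by group, and lines are means. Jup stays at the top of every library, and the Xirp1 start spreads from 38.2 in Myc replicate 2 to 85.4 in PCM1 replicate 2.

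At the start sites the order changed. The mean TSS percentile was 99.1 for Jup, 92.2 for Ctnna3, 91.6 for Pkp2, 83.2 for Tjp1 and 80.7 for Dsp, and 77.4 or less for the other 5. Xirp1 had the widest spread, at 75.1 and 66.1 in Input, 53.5 and 38.2 in Myc, with 82.0 and 85.4 in PCM1. The 3 groups did not overlap at the Xirp1 start. The Tjp1 value belongs to a start inside the gene, at 156.5 kb from its outermost 5′ end. At the outermost Tjp1 start only weak peaks were seen, with raw pileups of 24 and 12 tags in Input and 7 and 15 in Myc, with no peak in PCM1.

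Whether libraries of 2 groups overlapped was also read from the strongest peak in each window, as a description. Both Myc libraries ranked below both Input libraries for 7 members (Dsp, Pkp2, Jup, Dsg2, Cdh2, Gja1 and Xirp1), as for 21.8% of all genes, and above them for 1 (Ctnna3), as for 38.7%. Both Myc libraries ranked below both PCM1 libraries for 6 (Dsp, Pkp2, Jup, Dsg2, Dsc2 and Cdh2; 22.4% of all genes) and above them for 3 (Ctnna3, Gja1 and Tjp1; 43.4%). Both PCM1 libraries ranked above both Input libraries for Dsc2 alone (22% of all genes) and below them for Jup, Gja1, Tjp1 and Xirp1 (31.9%). The Dsp value in Myc comes from the promoter of its neighbor Snrnp48, and without that region the Dsp percentiles in Myc were 87.6 and 91.5.

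The pileup of the 69 shared regions was then compared between groups with limma, fitted over all 48011 autosomal regions with a peak in every library. Only regions seen in all 6 libraries entered, so a region lost altogether in 1 group is not among them. Between Myc and PCM1, 25 regions were lower in Myc (14% of all regions were) and 4 were higher (14.7%). The lower regions lay in 8 of the 10 genes, all but Dsc2 and Gja1, and the median log2 difference of the 69 was -0.32 against -0.0047 over all regions. By position, 5 of the 11 start-site regions were lower and 2 higher, where 8.82% of all regions at a TSS were lower and 32.8% higher. Of the 56 regions away from any TSS 20 were lower and 1 higher, against 16% and 7.91% of all such regions, and of the 2 at the TSS of another gene 1 was higher. With fold enrichment in place of pileup only 3 of the calls remained, all lower in Myc: Dsp at 11.5 kb, Cdh2 at 2.3 kb and Ctnna3 at 1056.1 kb. Over the 3 contrasts all 55 called differences kept their direction on the fold-enrichment scale, and 44 were over 1.5 times smaller there.

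**Figure D3:**
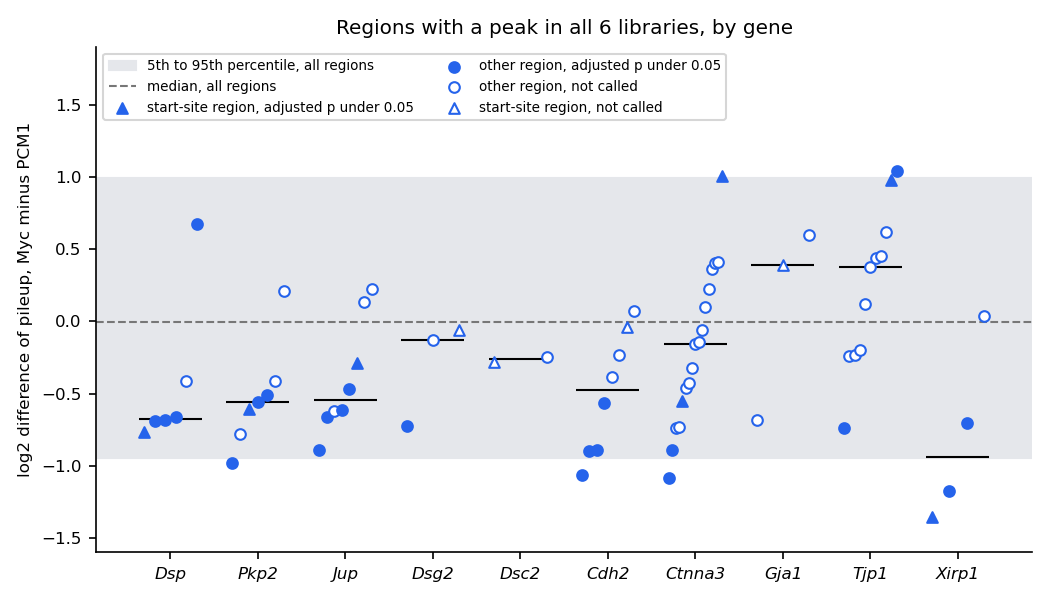
Log2 difference of normalized pileup, Myc minus PCM1 (y axis), for the 69 regions with a peak in all 6 libraries, by gene. Filled symbols have an adjusted p under 0.05, triangles are start-site regions, black lines are gene medians, and the gray band spans the 5th to 95th percentile of all 48011 regions; the Xirp1 median lies lowest at -0.94, and Gja1 and Tjp1 have medians above 0.

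Xirp1 showed the lowest median of the 10 genes. The gene lies on the minus strand at chr9:120013755-120023598. At its TSS (chr9:120023446-120023977), the normalized pileup was 106.1 and 83.8 in Input, 63.2 and 62.5 in Myc, with 154.2 and 167.3 in PCM1. Every PCM1 library stood above every Input library and every Input library above both Myc libraries. The log2 difference was -1.35 ± 0.18 (SE) for Myc against PCM1 (adjusted p = 7.4e-07), -0.59 ± 0.18 for Myc against Input (0.025) and 0.77 ± 0.18 for PCM1 against Input (0.0051). Here and below the SE is the moderated value of limma, which draws on the spread of all regions. It is not the spread of the 2 libraries of a group at that region. The intronic region at 2.2 kb (chr9:120021030-120021778) had pileups of 154.6 and 115.6 in Input, 71.8 and 116.7 in Myc, with 210.8 and 202.4 in PCM1. Here Myc was lower than PCM1 (-1.17 ± 0.18, adjusted p = 6.8e-06), and PCM1 was higher than Input (0.63 ± 0.18, 0.021). The Input and Myc libraries overlapped, and the test called Myc lower than Input all the same (-0.55 ± 0.18, 0.038). Without Myc replicate 1 this difference was -0.15 and that against PCM1 -0.78, and without Input replicate 2 that of PCM1 against Input was 0.41. The upstream region at -4.1 kb was also lower in Myc than in PCM1 (-0.71 ± 0.14, adjusted p = 2.4e-04) and higher in PCM1 than in Input (0.46 ± 0.14, 0.033), the first being -0.46 without Myc replicate 1. The strongest Xirp1 region on average, 12.3 kb from the 5′ end and beyond the 3′ end of the gene, had pileups between 206.1 and 246.4 in the 6 libraries and a Myc-PCM1 difference of 0.04 ± 0.11 (adjusted p = 0.84).

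Sequences of 300 bases centered on the summit are given for the 2 Xirp1 regions above, on the plus strand of mm10 (RefSeq GRCm38.p6), since these had the smallest p-values of Xirp1 in Myc against PCM1. Capitals mark matches, on either strand, to motifs named below.
Xirp1 start (chr9:120023491-120023790): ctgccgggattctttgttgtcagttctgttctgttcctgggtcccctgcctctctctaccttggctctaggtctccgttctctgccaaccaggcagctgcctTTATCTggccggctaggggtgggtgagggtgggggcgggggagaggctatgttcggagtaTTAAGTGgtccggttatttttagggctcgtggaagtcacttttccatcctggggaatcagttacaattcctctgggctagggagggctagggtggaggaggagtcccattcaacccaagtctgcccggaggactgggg
Xirp1 intron (chr9:120021200-120021499): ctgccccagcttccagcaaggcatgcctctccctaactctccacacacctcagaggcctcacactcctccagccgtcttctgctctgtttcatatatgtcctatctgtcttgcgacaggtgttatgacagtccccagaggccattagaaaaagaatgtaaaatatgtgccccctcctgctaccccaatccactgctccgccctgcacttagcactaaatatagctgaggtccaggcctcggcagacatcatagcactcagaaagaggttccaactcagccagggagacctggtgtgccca
The start-site window held a GATA match on the minus strand and an NKX2-5 match on the plus strand. The intronic window held no match to the 5 motifs searched. Each was searched as 1 string of letters, so other forms of these sites were not counted.

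Desmosomal genes with a role at the plaque, Dsp, Pkp2 and Jup, had 13 of their 21 shared regions lower in Myc than in PCM1 and 1 higher, the Snrnp48 promoter 53.6 kb from the Dsp 5′ end. The desmosomal cadherins, described below, had 1 of 3 (Dsg2) and 0 of 2 (Dsc2) shared regions lower. Of all regions 14% were lower and 14.7% higher. At Dsp (chr13:38151294-38198577, plus strand) the region at -2.8 kb (chr13:38148252-38148772) had pileups of 186.0 and 176.8 in Input, 134.7 and 131.1 in Myc, with 209.2 and 219.1 in PCM1. The Myc libraries were the lowest, without overlap. Myc was lower than PCM1 by -0.69 ± 0.13 (adjusted p = 1.3e-04) and than Input by -0.45 ± 0.13 (0.020), in log2 units. The Dsp start held 121.4 and 123.1 in Input, 87.4 and 79.0 in Myc, with 129.7 and 154.7 in PCM1, and it too was lower in Myc than in PCM1 (-0.77 ± 0.16, adjusted p = 5.2e-04) and than in Input (-0.56 ± 0.16, 0.022). The intronic region at 11.5 kb, the strongest of Dsp away from its start, was lower in Myc by -0.66 ± 0.14 against PCM1 (adjusted p = 6.2e-04) and by -0.57 ± 0.14 against Input (0.0077; -0.35 without Myc replicate 1), and 1 more intronic region was lower in both contrasts. In Myc against Input 5 of the 6 shared Dsp regions were lower, as were 6.73% of all regions, and the other, at Snrnp48, was higher (0.64 ± 0.18, adjusted p = 0.015).

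The upstream Dsp window is printed because it had the smallest p-value of the desmosomal genes in Myc against PCM1 (plus strand, mm10). It held no match to the 5 motifs as written below, and other forms of these sites were not searched.
Dsp upstream (chr13:38148383-38148682): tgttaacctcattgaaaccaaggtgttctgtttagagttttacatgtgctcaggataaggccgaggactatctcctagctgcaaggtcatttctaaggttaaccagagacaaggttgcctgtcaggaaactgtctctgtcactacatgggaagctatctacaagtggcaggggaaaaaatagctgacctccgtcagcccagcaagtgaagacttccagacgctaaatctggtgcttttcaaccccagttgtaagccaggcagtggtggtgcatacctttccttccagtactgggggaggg

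At Pkp2 (chr16:16213318-16272712, plus strand) the start-site region (chr16:16212970-16213686) had pileups of 199.98 and 186.5 in Input, 122.0 and 107.8 in Myc, with 171.9 and 178.0 in PCM1. Myc was the lowest group, by -0.61 ± 0.14 against PCM1 (adjusted p = 0.0010) and -0.75 ± 0.14 against Input (3.7e-04). The intronic region at 43.6 kb, the strongest of the gene, held 194.1 and 219.5 in Input, 158.4 and 149.3 in Myc, with 206.2 and 249.4 in PCM1. Its difference was -0.56 ± 0.13 against PCM1 (adjusted p = 0.0012). The region at 40.6 kb differed more, by -0.98 ± 0.20 (adjusted p = 3.6e-04), and 1 more intronic region of Pkp2 was lower in Myc than in PCM1. The coding-exon region at 17.3 kb had pileups between 20.3 and 44.7 and passed the test in no contrast.

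Jup (chr11:100368958-100397763, minus strand) had the strongest start-site peak of the 10 genes, with pileups of 426.8 and 462.9 in Input, 379.5 and 320.8 in Myc, with 441.5 and 409.7 in PCM1. The Myc libraries were again the lowest, by -0.29 ± 0.09 against PCM1 (adjusted p = 0.018) and -0.35 ± 0.09 against Input (0.011). Without Myc replicate 2 these differences were -0.11 and -0.19, and under median centring that against Input was -0.70. Jup introns held regions at 6.5 and 7.4 kb and 1 more that were lower in Myc than in PCM1. That at 6.5 kb, with the smallest p, held 162.3 and 160.2 in Input, 124.6 and 142.8 in Myc, with 206.3 and 216.0 in PCM1 (-0.66 ± 0.13, adjusted p = 3.1e-04). With the region at -4.7 kb, 5 of the 8 shared Jup regions were lower in Myc than in PCM1, as were 14% of all regions.

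**Figure D4:**
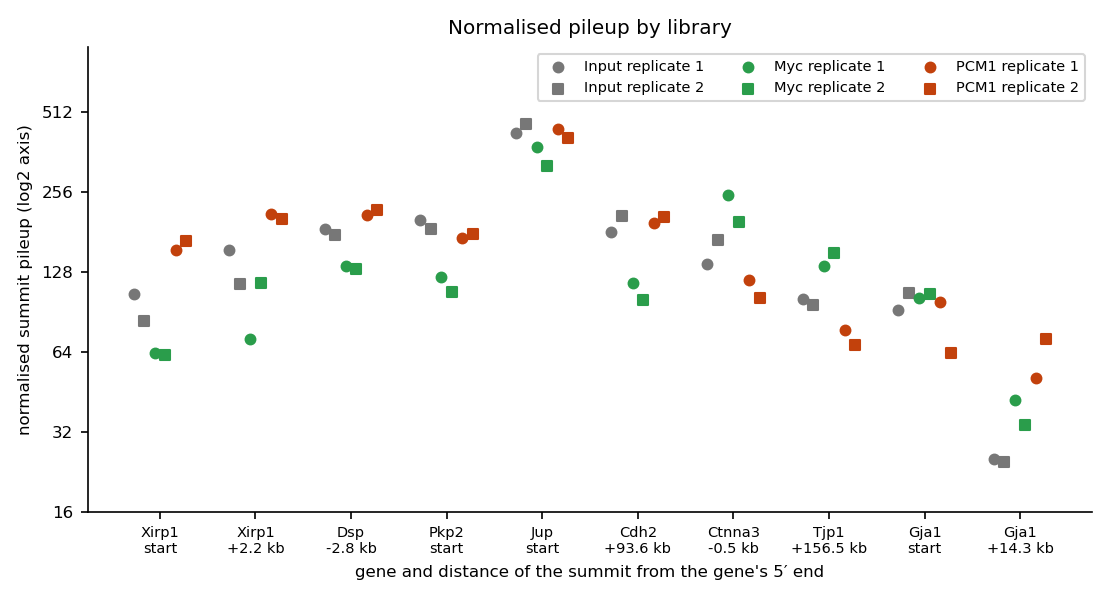
Normalized summit pileup (log2 y axis, tags) of 10 regions in each of the 6 libraries; circles and squares are replicates 1 and 2, colored by group. Both Myc points lie lowest at the Dsp, Pkp2, Jup and Cdh2 regions and at the Xirp1 start, and highest at the Ctnna3 start and the internal Tjp1 start.

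Ctnna3 and Tjp1 held 3 of the 4 regions higher in Myc than in PCM1. At the Ctnna3 5′ end (chr10:63429387-63430363) the pileup was 136.9 and 169.3 in Input, 248.5 and 197.7 in Myc, with 119.6 and 101.95 in PCM1. The groups did not overlap, with Myc highest and PCM1 lowest. Myc exceeded PCM1 by 1.01 ± 0.15 (adjusted p = 5.7e-06) and Input by 0.54 ± 0.15 (0.015), and PCM1 was lower than Input (-0.46 ± 0.15, 0.045). The summit lay at -0.5 kb. RefSeq places a tRNA gene for serine, n-TStga3, inside this region on the minus strand at chr10:63429476-63429557, so the signal of that gene and of the Ctnna3 promoter cannot be told apart in this merged region. The 2 other Ctnna3 calls away from the 5′ end with the smallest p-values went the other way, at 171.3 kb (-0.89 ± 0.29, adjusted p = 0.018) and at 1056.1 kb (-1.08 ± 0.35, 0.019), as did an internal start at 27.4 kb (-0.55 ± 0.20, 0.034), which stood at -0.26 without Myc replicate 1. The region at 1056.1 kb was weak, with raw pileups of 23 and 10 tags in Input, 12 and 13 in Myc, with 19 and 16 in PCM1. Its call was not kept under every omission of a library. The strongest Ctnna3 region away from a start, at 46.5 kb, had pileups between 102.9 and 130.5 and did not pass in any contrast. The other 12 of the 17 shared Ctnna3 regions passed no test against PCM1.

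The windows of the Ctnna3 and Tjp1 starts are printed because they were higher in Myc, on the plus strand of mm10. The Ctnna3 window held an NKX2-5 match on the minus strand. The internal Tjp1 start held none of the 5 motifs as written below, and other forms were not searched.
Ctnna3 5′ end (chr10:63429423-63429722): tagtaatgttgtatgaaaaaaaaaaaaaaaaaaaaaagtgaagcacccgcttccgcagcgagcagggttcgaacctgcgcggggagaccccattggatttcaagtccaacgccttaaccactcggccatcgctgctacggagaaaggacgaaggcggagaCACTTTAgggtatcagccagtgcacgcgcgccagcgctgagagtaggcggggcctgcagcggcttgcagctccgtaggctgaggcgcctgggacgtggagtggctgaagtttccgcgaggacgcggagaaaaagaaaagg
Tjp1 internal start (chr7:65371151-65371450): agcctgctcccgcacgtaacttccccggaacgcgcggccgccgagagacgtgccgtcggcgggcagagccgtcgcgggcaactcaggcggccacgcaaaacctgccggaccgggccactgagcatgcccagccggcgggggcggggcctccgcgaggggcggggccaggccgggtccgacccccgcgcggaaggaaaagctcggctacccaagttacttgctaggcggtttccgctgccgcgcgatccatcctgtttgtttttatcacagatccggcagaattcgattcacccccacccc

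The internal Tjp1 start (chr7:65370347-65371689, gene on the minus strand at chr7:65296165-65527781) had pileups of 101.0 and 96.2 in Input, 134.7 and 151.2 in Myc, with 77.2 and 67.9 in PCM1. Both Myc libraries stood above the other 4. The difference was 0.98 ± 0.17 against PCM1 (adjusted p = 5.5e-05) and 0.53 ± 0.17 against Input (0.037). A weaker intronic region at 7.8 kb was also higher in Myc than in PCM1 (1.04 ± 0.34, adjusted p = 0.021). The intronic region at 66.2 kb, the strongest of Tjp1 away from a start, ran opposite, with 97.3 and 117.4 in Input, 47.0 and 52.6 in Myc, with 82.9 and 82.7 in PCM1. It was lower in Myc than in Input (-1.10 ± 0.20, adjusted p = 2.9e-04) and than in PCM1 (-0.74 ± 0.20, 0.0049). Regions of the same gene thus moved in both directions.

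The motif search covered the 300-base window on the summit of each shared member region and of all 48011 regions, on both strands. For GATA factors, which act with many cardiac regulators, the letters AGATAA were searched. The TEAD factors, effectors of Hippo signaling, were represented by GGAATG. For NKX2-5, a cardiac homeobox factor, the search used TNAAGTG with N as any base. The AP-1 motif of Fos and Jun proteins was written as TGANTCA. MEF2 factors of muscle were represented by TAAAAATAG, and matches of different motifs may overlap. Of the 56 member regions away from any TSS, 16 held GATA (28.6% against 17.8% of all regions away from a TSS), 17 held TEAD (30.4% against 22.5%), 9 held NKX2-5 (16.1% against 16.4%), 6 held AP-1 (10.7% against 12.4%) and 2 held MEF2 (3.57% against 2.90%). Of the 11 start-site regions, GATA, TEAD and NKX2-5 were each found in 2 (18.2%), against 4.62%, 11.1% and 6.61% of all regions at a TSS. AP-1 was found in 1 and MEF2 in none. A match is only a run of letters and was not tested for binding. Other forms of the sites of these factors were not searched, so a window without a match may still hold such a site.

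The cadherins Cdh2, Dsg2 and Dsc2 lie on chromosome 18. Cdh2 (chr18:16588877-16809246, minus strand) had its strongest region in an intron at 93.6 kb (chr18:16715288-16716056), with pileups of 180.6 and 207.4 in Input, 116.7 and 100.6 in Myc, with 195.8 and 205.4 in PCM1. The Myc libraries were well below the other 4. The difference was -0.89 ± 0.14 against PCM1 (adjusted p = 1.1e-05) and -0.84 ± 0.14 against Input (1.1e-04). Introns at 68.3 kb (-0.56 ± 0.14, adjusted p = 0.0034) and 2.3 kb (-0.90 ± 0.23, 0.0037) were also lower in Myc than in PCM1, as was 1 more Cdh2 intronic region. The Cdh2 start itself had pileups between 76.5 and 105.2 and a Myc-PCM1 difference of -0.04 ± 0.18 (adjusted p = 0.91). Dsg2 (chr18:20558074-20604521, plus strand) had 1 called region, at -5.2 kb, with 93.7 and 104.4 in Input, 61.5 and 55.2 in Myc, with 124.4 and 74.3 in PCM1 (-0.72 ± 0.21 against PCM1, adjusted p = 0.0091). Without PCM1 replicate 1 this difference was -0.35 and without PCM1 replicate 2 it was -1.11. This was its strongest region, and it lies within 10 kb of the Dsg3 gene too. The Dsg2 start held between 47.0 and 66.4 and differed by -0.06 ± 0.24. Dsc2 (chr18:20030633-20059554, minus strand) had 2 regions, at 0.6 and 6.8 kb, with Myc-PCM1 differences of -0.28 ± 0.23 and -0.25 ± 0.21 that did not pass the test.

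Gja1 (chr10:56377330-56402513, plus strand) had no call for Myc in either contrast. Its start held 91.8 and 106.5 in Input, 101.7 and 105.9 in Myc, with 99.0 and 63.1 in PCM1, where the second PCM1 library was the lowest of the 6. The Myc-PCM1 difference was 0.39 ± 0.19 (adjusted p = 0.13). An intronic region at 14.3 kb held 25.4 and 24.5 in Input, 42.0 and 33.9 in Myc, with 51.0 and 71.7 in PCM1. It was higher in PCM1 than in Input (1.28 ± 0.28, adjusted p = 0.0036). On the fold-enrichment scale this difference was 0.15 and did not pass. The strongest Gja1 region away from the start, at -8.0 kb, had pileups between 22.1 and 42.6 and passed no test.

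Against Input, Myc was lower at 17 of the 69 regions (6.73% of all regions were) and higher at 3 (5.18%), with a median log2 difference of -0.18 against 0.015 over all regions. The lower regions fell in the 8 genes with a lower region against PCM1, 5 of them in Dsp, 3 in Pkp2, 2 each in Jup, Cdh2 and Xirp1, and 1 each in Dsg2, Ctnna3 and Tjp1. The 3 higher ones were the Ctnna3 5′ end, the internal Tjp1 start and the Snrnp48 promoter. The count fell to 7 without Input replicate 1, 6 without Input replicate 2, 5 without Myc replicate 1 and 8 without Myc replicate 2. Calls at Cdh2 93.6 kb, the Pkp2 start and Tjp1 66.2 kb remained each time. With fold enrichment no region passed, while 12 had an unadjusted p under 0.05. The Myc contrasts share their Myc libraries, and their values are given side by side only.

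PCM1 was higher than Input at 5 of the 69 regions (3.98% of all regions) and lower at 1 (5.11%), with a median log2 difference of 0.14 against 0.0052 over all regions. On the fold-enrichment scale the median of the members was -0.049, so its sign was not stable. The 5 were the Xirp1 start, Xirp1 at 2.2 and -4.1 kb, Gja1 at 14.3 kb and Ctnna3 at 1056.1 kb, and the lower one was the Ctnna3 5′ end. Thus 3 of the 4 shared Xirp1 regions were higher in PCM1. No desmosomal gene had a call. The total of 6 fell to 1 without Input replicate 2 and to 2 without PCM1 replicate 2, and none of the calls held through every omission of a library. With fold enrichment no region passed and 5 had an unadjusted p under 0.05. Under median centring 3 were higher and 4 lower, the calls at Xirp1 2.2 and -4.1 kb were lost, and the share of higher among all called regions moved from 43.8 to 27.0%. In Myc against Input the same change moved it from 43.5 to 31.5%, with 2 member regions higher and 19 lower, and the call at the Ctnna3 5′ end was lost.

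Lists of other genes were read the same way, for the contrast of Myc with PCM1. Calls of these lists, and of the cell-type markers below, were counted on the pileup scale only. Their stability under the alternatives was not tested. Among 16 further disc genes, 16 had a TSS peak in all 6 libraries. Their mean percentiles ran from Vcl (vinculin, 99.8) and Tmem43 (98.4) to Xirp2 (58.5) and Cxadr (47.2). Of their 96 shared regions 18 (18.75%) were lower in Myc and 5 (5.21%) higher, where 14% and 14.7% of all regions were. Among 15 paralogs typical of epithelia and other tissues, only 4 had a TSS peak in all 6 libraries and 6 had none in any library, among them the desmosomal cadherins Dsg3 and Dsc1. Tjp3 was an exception at 99.4. Of the 23 shared regions of the paralogs, 1 of which is also in a member window, 5 (21.7%) were lower in Myc and 1 (4.35%) higher.

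Markers of cardiomyocytes moved with the same contrast. Of 64 shared regions at 10 cardiomyocyte genes, 46 (71.9%) were lower in Myc than in PCM1 and 2 higher, against 14% and 14.7% of all regions. Myc was lower than Input at 29 (6.73% of all regions) and higher at 1 (5.18%). PCM1 was higher than Input at 26 (3.98% of all regions) and lower at none (5.11%). The mean TSS percentile of these genes was 86.7 and 87.6 in Input, 77.0 and 78.6 in Myc, with 86.6 and 86.9 in PCM1. Regions of fibroblast genes were lower in Myc than in PCM1 at 1 and higher at 2 of 22, of endothelial genes at 8 and 7 of 60, of smooth muscle and pericyte genes at 3 and 3 of 35, of epicardial and epithelial genes at 2 and 1 of 13, and of immune and erythroid genes at 0 and 1 of 11. The mean TSS percentile of endothelial genes was 56.7 and 49.6 in Input, 65.4 and 67.4 in Myc, with 56.6 and 57.9 in PCM1. Their medians overlapped between groups, at 65.3 and 54.3 in Input, 66.4 and 63.5 in Myc, with 63.6 and 61.4 in PCM1. For fibroblast genes it was 50.6 and 49.0 in Input, 50.1 and 54.6 in Myc, with 45.5 and 41.3 in PCM1. Smooth muscle and pericyte genes had 61.5 and 56.0 in Input, 50.2 and 56.8 in Myc, with 59.2 and 48.6 in PCM1. Epicardial and epithelial genes had 31.9 and 33.3 in Input, 21.3 and 25.6 in Myc, with 27.5 and 29.95 in PCM1. Immune and erythroid genes had between 8.42 and 12.7 in the 6 libraries, most of it from Klf1 (mean 85.8). Their median was 0 in each library, and 7 of the 10 genes had no TSS peak in any library. The part of cell composition in the differences at the disc genes was not tested, and in bulk nuclei fewer nuclei of a type and less accessibility per nucleus cannot be told apart.

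**Figure D5:**
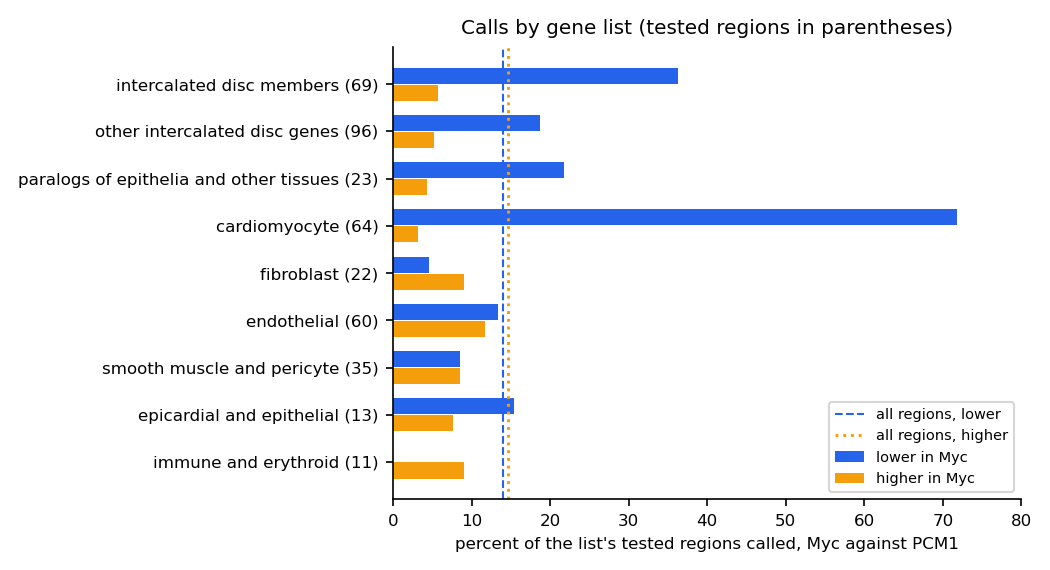
Percent of the tested regions of each gene list called lower (blue) or higher (orange) in Myc than in PCM1 (x axis), with the number of tested regions in parentheses; vertical lines give the shares over all 48011 regions. The 10 disc genes have 36.2% lower and 5.80% higher, and the cardiomyocyte list 71.9% lower.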

How the data were processed

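Omni-ATAC-Seq peak lists of 6 libraries, 3 groups of 2 biological replicates (Input, Myc, PCM1), were analyzed. The authors mapped reads to mm10 with Bowtie2 2.3.3.1, marked duplicates with Picard 2.2.1, removed blacklisted regions with bedtools 2.7.1, shifted alignments for the transposase and called peaks per library with MACS2 2.1.0.20160309 at a q-value threshold of 0.05. The deposited lists give each summit's fold enrichment over local background, its -log10 p-value and -log10 q-value, and a score that the authors derived from the q-value; the score was not used in a test.

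The pileup of each summit was solved from its fold and p-value. Between 99.8 and 100% of pileups per library came out whole within 0.02. Read counts were not used here. Depth (modal background) limits which weak peaks could be called. Peaks overlapping by at least 1 bp were merged, and genes were taken from GENCODE M21 with 10 kb flanks. Of the member regions 28.05% had a peak in all 6 libraries. In 25.6% every library had a summit within 250 bp of the strongest one. Log2 pileups of the 48011 autosomal regions with a peak in all 6 libraries were normalized by cyclic loess and tested with limma 3.58.1 (R 4.3.3) over the 3 groups, with Benjamini-Hochberg adjustment over all regions for each contrast and 0.05 as threshold. The test was also run on simulated counts with the same spread for all regions and no difference in background between libraries. The pileup solution was run on values made with the formula it inverts. Neither run can show how well the steps suit the real peak lists. The remaining steps ran in Python (3.11.15) using pandas 2.3.3, scipy 1.17.1, numpy 2.4.6 and, for plots, matplotlib 3.10.9.

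Every member was named, with its start-site region, its strongest region elsewhere, up to 3 called regions per contrast, and regions of 1 group only. The Snrnp48 region and the tRNA gene were named after their values were seen. The members, lists and motifs were chosen with earlier results of these data known. Alternatives were median centring, fold enrichment, a replicate block, a q-value of 0.01, an equal number of peaks, 2 kb flanks, summits within 250 bp, 200 bp around a TSS, other rankings, and each library left out.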

Additional observations from a re-analysis of the deposited data

How the results depend on the processing

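When each library was limited to its strongest 75336 peaks, the regions in the windows numbered 162 in place of 246 and the share in all libraries was 41.4% in place of 28.05%. With fold enrichment in place of pileup the calls were 0 for Myc against Input, 0 for PCM1 against Input and 3 for Myc against PCM1, and the cause was not tested. Over all regions that setting gave 63, 153 and 3516 calls in place of 5718, 4364 and 13820. The mean rank of the members' strongest peaks was 90.6, 92.6 within each library's whole list and 87.9 by fold enrichment. Leaving out each library in turn gave 5 to 20 calls for Myc against Input, 1 to 6 for PCM1 against Input and 21 to 32 for Myc against PCM1; when 1 library of a group remained, it was assumed to vary like the other groups. Of the calls, 3 of 20, 0 of 6 and 15 of 29 remained under every such omission. No called difference changed direction under the alternatives, and the direction of regions that were not called was not followed. Same-numbered libraries of different groups did not deviate together (correlations 0.0053, -0.0022 and 0.0059 across regions). The fit with a replicate block gave 20, 6 and 29 calls. Such correlations cannot show whether libraries of different groups shared a preparation. In the paper an aliquot of the cushion nuclei served as Input and the rest went to MAN-IP. Whether Input and PCM1 libraries came from the same nuclei was not tested. With 2 libraries per group and a 4.38-fold range of depth, weak regions and small differences are the least certain.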
